A study of Mus musculus with 76 samples.

Results

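The genes examined are those of antigen presentation by the major histocompatibility complex (MHC) of class I and class II, in 76 single mouse cells. They were chosen by name, with earlier results of these data known: every gene of the deposited table whose symbol begins with H2- (32 genes), and the 11 named genes B2m, Cd74, Ciita, Nlrc5, Tap1, Tap2, Tapbp, Psmb8, Psmb9, Psmb10 and Bst2. This gave 43 members among 15192 genes. They comprised 20 class I heavy chain genes, 5 class II chain genes, 5 genes of class II peptide exchange, the 11 named genes, and H2-Ke2 and H2-Ke6. The last pair lie in the H2 region but encode a prefoldin subunit and a hydroxysteroid dehydrogenase, so they were counted in neither class.

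The cells are called iHPCs, progenitors obtained from pluripotent stem cells through inducible Runx1, Hoxa9 and Hoxa10, 3 transcription factors of blood formation. All 76 cells form 1 group with the 3 factors, and no control cells were analysed here. The sources used here do not give the strain of the stem cells, the culture or the gate of the sort. Each library came from 1 sorted cell by whole-transcriptome amplification of polyadenylated RNA, and no animal, culture or sort was named for any cell. The 76 cells therefore count as 1 sample, and no test was made from them. Levels are in TPM, the share of a cell's transcripts after division by gene length, scaled to a sum of 1000000. Differences between genes in capture, amplification or read assignment are not corrected by this. Levels of different genes are therefore set side by side as a description. Detection means at least 1 TPM, and 10 TPM served as a higher threshold.

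Class I molecules consist of a heavy chain and beta-2 microglobulin and show peptides from the cytosol to CD8 T cells on nearly all nucleated cells. Those peptides are cut by the proteasome, carried into the endoplasmic reticulum by the TAP transporter and loaded with the help of tapasin. Class II molecules consist of an alpha and a beta chain, show peptides from endosomes to CD4 T cells, and mark dendritic cells, B cells and macrophages. They need the invariant chain Cd74 and the DM exchange factor, and their genes depend on the coactivator Ciita, as class I genes do in part on Nlrc5.

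The promoters of both classes are known for a shared module of an X box and a Y box, and class I genes and B2m also for elements bound by interferon regulatory factors and NF-kappa B. Of the 3 promoters shown, that of B2m belongs to a gene detected in all 76 cells, and those of H2-Aa and H2-Eb1 to class II chains detected in 17 and 3 cells. Each is the stretch just before the RefSeq start in GRCm38.p6, the build that mm10 also names, written 5′ to 3′ in the direction of the gene, with every match to the motifs searched in capitals. The B2m stretch is chr2:122147487-122147686 on the plus strand. The H2-Aa stretch is chr17:34287824-34287973 on the minus strand and that of H2-Eb1 is chr17:34305717-34305866 on the plus strand.
B2m: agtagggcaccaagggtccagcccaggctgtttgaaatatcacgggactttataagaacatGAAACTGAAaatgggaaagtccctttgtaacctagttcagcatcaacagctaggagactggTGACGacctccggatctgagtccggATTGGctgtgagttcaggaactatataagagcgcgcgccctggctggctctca
H2-Aa: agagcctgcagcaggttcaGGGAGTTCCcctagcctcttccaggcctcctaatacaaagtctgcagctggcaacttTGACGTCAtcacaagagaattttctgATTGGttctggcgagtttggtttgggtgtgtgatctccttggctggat
H2-Eb1: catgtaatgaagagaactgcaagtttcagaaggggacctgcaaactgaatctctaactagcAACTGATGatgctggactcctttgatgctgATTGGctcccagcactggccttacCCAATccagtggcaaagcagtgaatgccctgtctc

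Each motif was searched on both strands in the 250 bases before the start, for 27 of the 43 members and for 27025 genes in all. H2-Ab1, Cd74, Tap2, Ciita and Nlrc5 were among the members without a promoter entry. The class II counts below therefore leave out H2-Ab1, which supplied most of the class II chain TPM. RefSeq gives some genes several starts and 1 was used for each, which in 6 members (H2-DMa, H2-DMb2, H2-Eb2, H2-K1, H2-M5 and H2-Q7) lies inside the outermost extent of the gene. The Y box core, CCAAT, was found in 10 of 12 promoters of class I heavy chains and B2m, in 7 of 8 promoters of class II chains and exchange genes, and in 34.5% of all promoters. In the printed stretches its match nearest the start began 53 bases before it in B2m, 48 in H2-Aa and 35 in H2-Eb1. The X1 box core, AACNGATG, was found in 4 of the 8 class II and exchange promoters (H2-DMb1, H2-DMb2, H2-Eb1 and H2-Eb2), in 0 of the 12 of class I, and in 1.97% of all promoters. The core of the interferon-stimulated element, GAAANNGAA, was found in 3 of the 12 class I promoters (B2m, H2-T23 and H2-T22), in 0 of the 8 of class II, and in 7.16% of all.

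The kappa B core, GGGNNTTCC, was found in 4 of the 12 class I promoters (H2-K1, H2-D1, H2-Q4 and H2-Q7), in 2 of the 8 of class II (H2-Aa and H2-Oa), and in 4.88% of all promoters. The gamma-activated sequence, TTCNNNGAA, reads the same on both strands and was found in 1 class I promoter, 1 class II promoter and 7.18% of all. TGACG, a piece of the cAMP response element, was found in 7 of the 12, 1 of the 8 and 17.9% of all, and its matches in H2-Aa overlap each other on opposite strands. Among the 5 antigen processing genes with a promoter entry, CCAAT was found in Tapbp, Psmb9 and Tap1. A match is a match of letters, and no binding was measured. A promoter without a match may hold a variant of the element that the pattern misses.

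All 10 listed pan-haematopoietic and progenitor markers were detected in at least 38 cells, against 23.1% of all genes. The list was chosen with earlier results of these data known, and the gate of the sort is not given. The count is therefore no check of the label. Here and below, a gene of a fixed list is called listed only if it is among the 15192 genes. Coro1a, Arhgdib, Cd48 and Cd34 were in all 76 and Ptprc, the leukocyte phosphatase CD45, in 66. A median of 4182.5 genes per cell was detected (2465 to 5992). Library depth is unknown and a gene listed at 0 TPM may have been missed, so a number of cells here is the number in which a gene was captured. Fewer transcripts per cell and poorer capture cannot be told apart.

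Of the 43 members, 33 reached 1 TPM in some cell, and 26 did so in at least 10 cells, as did 52.9% of all genes in the table. In at least 38 of the 76 cells 17 members were detected, against 23.1% of all genes, and 13 reached 10 TPM, against 19.8% of all genes. A cell held a median of 16 members (10 to 22). B2m, H2-D1, H2-K1 and Psmb8 were detected in every cell. At the other end, 10 members never reached 1 TPM, as was the case for 18.8% of all genes. These 10 were the coactivators Ciita and Nlrc5, the class I genes H2-Bl, H2-Q2, H2-Q4, H2-Q5 and H2-Q10, and H2-Ea-ps, H2-M5 and H2-M10.2, of which the last 3 were listed at 0 in every cell.

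**Figure D1:**
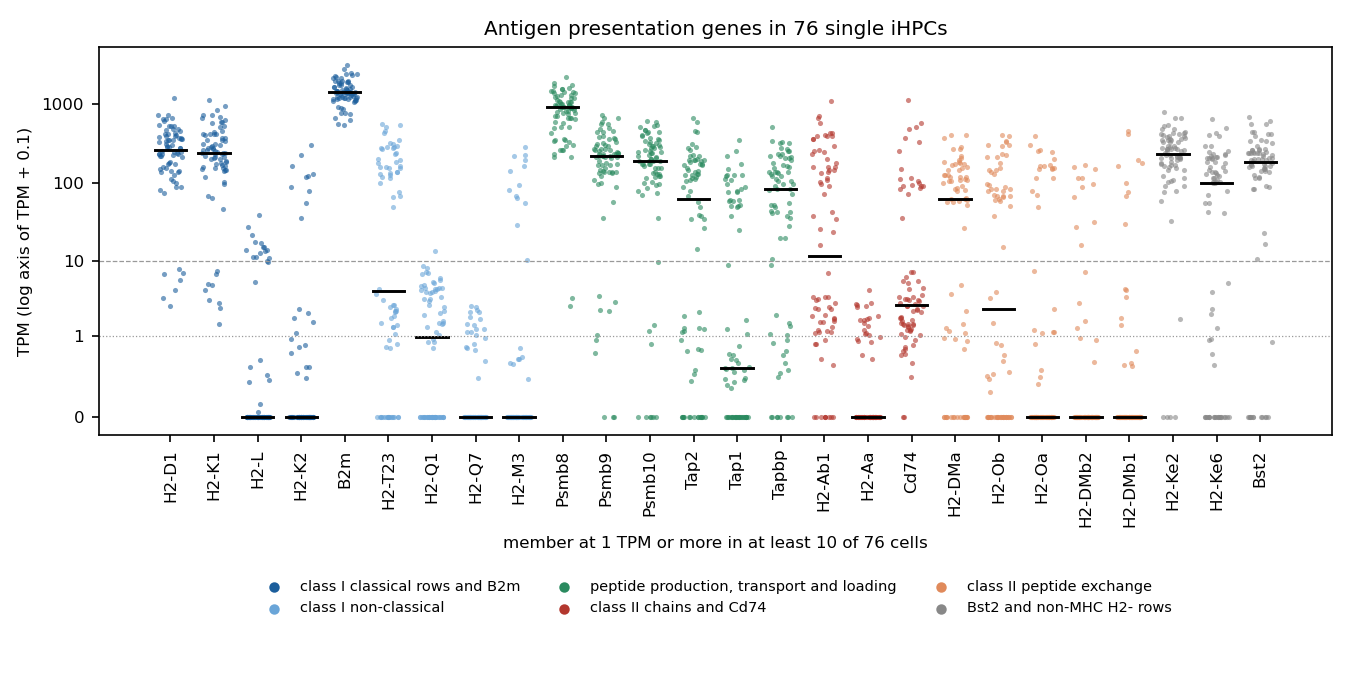
Level of each member detected in at least 10 of 76 cells, 1 point per cell, in TPM on a log axis of TPM + 0.1, with a bar at the median, lines at 1 and 10 TPM and sideways scatter only to part the points. B2m lies between 552 and 3221 TPM in all cells, H2-Aa stays under 10 TPM, and H2-Ab1 and Cd74 spread from 0 to 1113 and 1138 TPM.

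B2m, the light chain common to class I molecules, had the highest median of all members. Its level ran from 552 TPM to 3221 TPM with a median of 1434 TPM, which ranked 55 among the medians of all genes. No cell lacked it, and the middle of the distribution was narrow, with quartiles of 1208 and 1768 TPM. The gene lies on chromosome 2, outside the H2 region, and shares none of its 50-base stretches with another annotated gene.

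The 2 main classical heavy chains, which present peptides to CD8 T cells, had similar levels. H2-D1 ran from 2.53 to 1212 TPM with a median of 265 TPM, and H2-K1 from 1.47 to 1149 TPM with a median of 239 TPM. H2-K1 was the higher of the pair in 33 of the 76 cells. The values of each gene formed 2 bands with a gap between them. For H2-D1, 7 cells lay between 2.53 and 7.74 TPM and the next cell at 72.9 TPM, and for H2-K1, 9 cells lay at or below 7.39 TPM and the next at 45.7 TPM. At 10 TPM both genes were found in 62 cells, H2-K1 alone in 5, H2-D1 alone in 7 and neither in 2. Cells low in one of these heavy chains mostly held the other, but so did most cells. Over all 76 cells H2-D1 reached 10 TPM in 69 and H2-K1 in 67.

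Across cells the 2 genes showed little relation in rank, with a Spearman rho of 0.17 and a Pearson r of log2(TPM + 1) of 0.18 over 76 cells. Each point is a library of its own, scaled to the same total, and no p-value is given because cells of 1 sample are not replicates. Of their 50-base stretches, 12.8% in H2-D1 and 9.63% in H2-K1 also occur in other annotated genes, so some reads could have been credited to another class I gene.

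The remaining class I heavy chains were rarer. H2-T23, which encodes Qa-1, the ligand of CD94/NKG2 receptors of natural killer cells, was detected in 54 cells and reached 10 TPM in 37, with a median of 4.01 TPM and a highest value of 556 TPM. H2-Q1 was detected in 38 cells, but reached 10 TPM in 1 (13.4 TPM). H2-M3, which presents formylated peptides, was detected in 13 cells, all of them at 10 TPM or more, up to 287 TPM. H2-K2, annotated as a transcribed pseudogene, was detected in 15 cells (up to 299.9 TPM), H2-L in 17 (up to 38.04 TPM) and H2-Q7, a gene of Qa-2, in 14 (up to 2.58 TPM). H2-T22, H2-T24, H2-T9, H2-Q8 and H2-T10 were each detected in 5 to 8 cells. H2-Q7 and nearly all H2-Q1 detections were thus under 10 TPM, whereas those of H2-M3 were above it and H2-T23 had 17 cells below it and 37 above. H2-Q7 shares 26.4% and H2-T22 34.5% of their 50-base stretches with other genes, and their values are uncertain to that extent.

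Summed over the 20 heavy chain genes, class I stood at a median of 739 TPM per cell (95% order-statistic interval 656 to 839 TPM, counting of cells only). The sum ran from 166 TPM in cell F6 to 2473 TPM in cell G2. Over all cells H2-D1 supplied 38.7% of it, H2-K1 38.2% and H2-T23 14.5%. The classical genes made up a median of 87.3% of a cell's class I sum. In cell D9, where both H2-K1 and H2-D1 were under 10 TPM, that share was 2.28%. B2m exceeded the heavy chain sum by a median factor of 2.04 (0.351 to 8.69), and the 2 levels were nearly unrelated across the 76 cells (rho 0.10, r 0.13).

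Class II chain transcripts came almost wholly from 1 gene. H2-Ab1, the beta chain of the A molecule (chr17:34263227-34269418), supplied 98.6% of the summed TPM of the 5 class II chain genes, with Cd74 and the exchange genes left out. It was detected in 62 cells, reached 10 TPM in 38 and 100 TPM in 29, and ran from 0 to 1113 TPM and its median was 11.5 TPM. No cell lay between 6.97 and 16.03 TPM, so that the 38 cells above the gap (median 169 TPM) stood apart from the 38 below it (median 1.27 TPM). H2-Ab1 shares no 50-base stretch with another annotated gene and overlaps no other gene's exons.

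H2-Aa, the alpha chain that pairs with H2-Ab1 (chr17:34282744-34287823), was listed at 0 in 53 cells, reached 1 TPM in 17, and never exceeded 4.10 TPM. In the 38 cells with H2-Ab1 at 10 TPM or more, H2-Aa was at 0 in 25 and reached 1 TPM in 9. In the 13 of these cells where it was above 0, H2-Ab1 exceeded it by a median factor of 122 (40.03 to 1331). In the 38 cells with low H2-Ab1, H2-Aa reached 1 TPM in 8, against the 9 above. The part of capture and read assignment in the difference between H2-Ab1 and H2-Aa was not tested. The E molecule was rarer still. Its beta chain H2-Eb1 was detected in 3 cells (up to 1.69 TPM), H2-Eb2 in 2 cells (up to 45.7 TPM), and the alpha chain H2-Ea-ps, annotated as a transcribed pseudogene, in 0.

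Cd74, the invariant chain that fills the class II groove until endosomal exchange, was detected in 64 cells but reached 10 TPM in 20 and 100 TPM in 11. Its median was 2.65 TPM and its highest value 1138 TPM, in cell E9, the cell with the fewest genes detected (2465). Most detections were low, since 44 cells lay between 1 and 7.17 TPM and the next cell at 35.2 TPM. At 10 TPM, H2-Ab1 and Cd74 were found together in 10 cells, H2-Ab1 alone in 28, Cd74 alone in 10 and neither in 28. Their levels were unrelated in rank over 76 cells (rho between Cd74 and the class II sum 0.02, r 0.03).

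**Figure D2:**
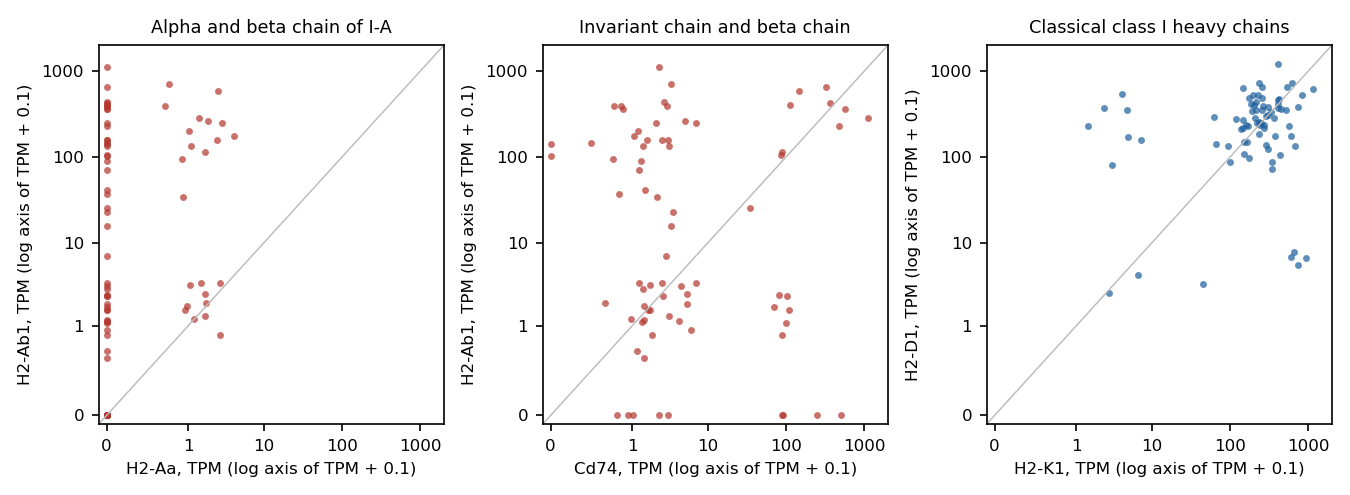
H2-Ab1 against H2-Aa, H2-Ab1 against Cd74, and H2-D1 against H2-K1 across 76 cells, 1 point per cell with the line of equal level, in TPM on log axes of TPM + 0.1. Cells with high H2-Ab1 have H2-Aa at or below 4.10 TPM, and 10 cells hold both H2-Ab1 and Cd74 at 10 TPM or more, and 62 both H2-K1 and H2-D1.

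An alpha chain, the beta chain of the same molecule and Cd74 were detected together in 14 of 76 cells (18.4%, exact Clopper-Pearson 95% interval 10.5 to 28.97%). At 10 TPM this combination was found in 0 of 76 cells. This had to be so, since H2-Aa never exceeded 4.10 TPM and H2-Ea-ps was at 0 in every cell. The interval covers counting error over cells alone. The 14 cells rest on H2-Aa values between 1 and 4.10 TPM.

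Low values of this kind also occurred outside class II. Among the 26 members detected in at least 10 cells, the number of cells dropped by over 1.5 times from the 1 TPM to the 10 TPM threshold in 6, against 11.4% of the 8034 genes detected that often. These were H2-Aa, H2-Ab1, H2-DMb1, H2-Q1, H2-Q7 and Cd74. H2-D1 and H2-K1 also had no cell at 0, their low cells all lying between 1 and 10 TPM. Bst2 stood at the opposite end, with 12 of its 13 cells under 10 TPM listed at exactly 0, where Cd74 had 2 of 56. The source of the low values was not tested.

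The DM heterodimer, which removes the invariant chain peptide, was captured unevenly. H2-DMa, its alpha chain, was detected in 52 cells and reached 10 TPM in 45, with a median of 61.2 TPM and a highest value of 409 TPM. The beta chains H2-DMb1 and H2-DMb2 were detected in 14 and 15 cells, with highest values of 455 and 166 TPM. At 10 TPM, H2-DMa was found in 10 of the 14 cells with at least 1 of the beta chains, and in 45 of all 76 cells. H2-DMa exons overlap those of Brd2 on the opposite strand over 360 bases, 10.4% of its exon length. The sources used here do not say whether counting used strand, so part of its reads could come from Brd2.

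The DO heterodimer restrains DM in B cells and some dendritic cells. Its beta chain H2-Ob was detected in 39 cells (36 at 10 TPM, up to 407 TPM) and its alpha chain H2-Oa in 24 (18 at 10 TPM, up to 396 TPM). Both reached 10 TPM in 9 cells, so that 9 of the 18 cells with H2-Oa held H2-Ob, and 27 of the 36 with H2-Ob did not hold H2-Oa. These shares were similar to those over all 76 cells, where H2-Ob reached 10 TPM in 36 and H2-Oa in 18. Of H2-Oa exon length, 22.8% is overlapped by the antisense gene BC051537.

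The coactivators of both classes were scarcely captured. Ciita was above 0 in 2 cells, with a highest value of 0.263 TPM, and Nlrc5 in 1 cell, at 0.0243 TPM. Among the DNA-binding factors of the class II promoter, Rfx5, whose product binds the X box, was detected in 6 cells, Rfxap in 10 and Rfxank in 24. The most widespread of the 7 listed factors were Nfyc (52 cells), Rfxank and Nfyb (21 cells), where Nfyc and Nfyb are subunits of the Y box factor. Of the 7, 1 was detected in at least 38 cells, against 23.1% of all genes. With unknown depth, absence of these transcripts from a cell is not shown.

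The immunoproteasome subunits replace the catalytic subunits of the constitutive proteasome. Psmb8 was detected in all 76 cells, from 2.57 to 2212 TPM with a median of 913 TPM, and all but 2 cells held at least 209.7 TPM. Psmb9 was detected in 71 cells (median 220 TPM, up to 735 TPM) and Psmb10 in 69 (median 191 TPM, up to 613 TPM). All 3 were among the most widely captured members.

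Against their constitutive counterparts the 3 subunits stood in different orders. Psmb8 exceeded Psmb5 (median 473 TPM) in 58 of 76 cells, with a median difference in log2(TPM + 1) of 0.70 (95% order-statistic interval 0.45 to 1.19). Exons of the antisense gene Gm20496 overlap 14.7% of Psmb8 exon length. Psmb9 was below Psmb6 (median 1121 TPM) in all 76 cells, with a median difference of -2.30 (-2.60 to -2.07). Psmb10 and Psmb7 (median 202 TPM) were about level, with Psmb10 higher in 32 cells and a median difference of -0.21 (-0.60 to 0.32). The immunoproteasome subunits made up a median of 41.4% of the TPM of the 6 subunits (9.89 to 69.4%).

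**Figure D3:**
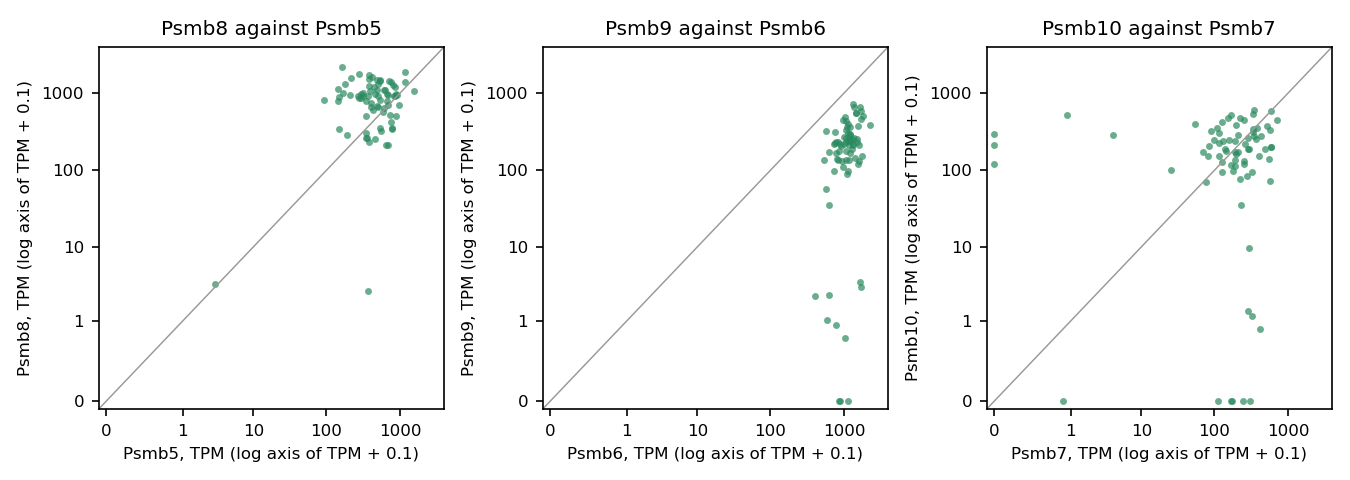
Each immunoproteasome subunit against its constitutive counterpart in 76 cells, in TPM on log axes of TPM + 0.1, with the line of equal level. Psmb8 lies above the line in 58 cells, Psmb9 in 0 and Psmb10 in 32.

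Peptide transport and loading genes were captured in fewer cells. Tapbp (tapasin) was detected in 60 cells (median 81.9 TPM, up to 515 TPM). Tap2 was detected in 53 cells (median 62.3 TPM, up to 662 TPM) and Tap1, the other chain of the transporter, in 31 (median 0.334 TPM, up to 348 TPM). At 10 TPM both TAP chains were found in 17 cells, Tap1 alone in 10, Tap2 alone in 29 and neither in 20. Psmb9, the neighbour of Tap1 on the opposite strand, reached 10 TPM in 66 of all 76 cells. It did so in 24 of the 27 cells with Tap1 at 10 TPM, a similar share, and in 42 cells without Tap1. The rho between Tap1 and Psmb9 was 0.10 over 76 cells. The exons of the 2 genes overlap over 212 bases. Antisense genes also overlap 24.9% of Tapbp exon length (Gm19412) and the long noncoding Gm15821 14.1% of that of Tap2, with the same limit of unknown strand as for H2-DMa. A heavy chain, B2m, both TAP chains, tapasin and all 3 immunoproteasome subunits were detected together in 16 cells, and in 13 at 10 TPM.

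Partners of class I loading outside the members were widespread. Of 12 listed genes of peptide trimming and loading, 7 were detected in at least 38 cells, against 23.1% of all genes. Calr, Pdia3 and Hspa5, chaperones of the endoplasmic reticulum, were in all 76. The trimming aminopeptidase Erap1 was detected in 30. The 4 listed genes of proteasome activation and assembly were each found in 61 to 76 cells, led by Pomp (76), Psme2 (75) and Psme1 (74). Of 10 listed endosomal genes of the class II route, Ctsd (76 cells), Ctsb, Cd63 and Lamp1 (73 each) were widely captured, whereas Ctss, the protease that degrades the invariant chain, was found in 29 and the thiol reductase Ifi30 in 6. Of 9 listed co-stimulatory genes, which a presenting cell uses to activate T cells, none reached 38 cells, against 23.1% of all genes. The highest numbers were 17 for Tnfsf9, 9 for Pdcd1lg2 and 8 for Ccr7, and Cd80 was in 0 and Cd86 in 5.

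Bst2, the antiviral surface protein tetherin, was detected in 63 cells, all at 10 TPM or more, with a median of 185 TPM and a highest value of 684 TPM. H2-Ke2 and H2-Ke6, the neighbours without a role in presentation, were detected in 72 cells (median 233 TPM) and 51 cells (median 99.8 TPM). H2-Ke6 shares 70.5% of its 50-base stretches with the overlapping gene Gm20427, so its value is uncertain.

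Set against each other within a cell, the class I sum exceeded the class II sum in 71 of 76 cells. The class II sum had a median of 20.4 TPM (3.07 to 103 TPM), with a range of 0 to 1113 TPM, and was 0 in 8 cells. Its median was 4.24 TPM in cells with title numbers 2 to 6, 91.1 TPM in 7 to 11, and 90.9 TPM over all cells with Cd74 added. The median difference in log2(sum + 1) was 5.56 (3.07 to 6.99), with 6.85 in numbers 2 to 6 and 3.34 in 7 to 11. The 5 cells with more class II were H10, H3, D11, G8 and B6. Across the 76 cells the 2 sums were unrelated in rank (rho 0.04, r 0.01), and without the 2 cells farthest from the median class I sum rho was 0.05.

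**Figure D4:**
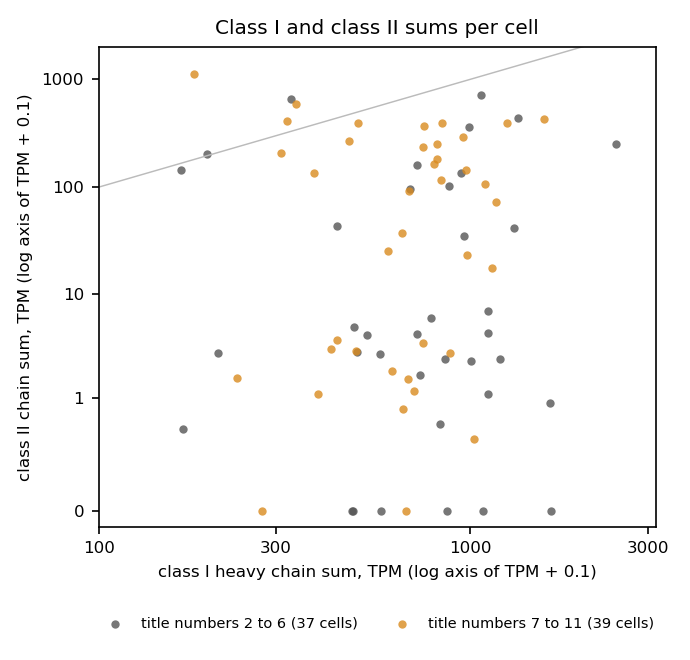
Class II chain sum against class I heavy chain sum in 76 cells, in TPM on log axes of TPM + 0.1, with cells of title numbers 2 to 6 and 7 to 11 marked. Class I lies between 166 and 2473 TPM, class II between 0 and 1113 TPM, and 5 cells lie above the line of equal level.

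Within each class the members varied with little relation to one another. Here class I covered the heavy chains, B2m, both TAP chains, tapasin and the immunoproteasome subunits, and class II the chains, Cd74 and the exchange genes. Among genes detected in at least 10 cells, the median rho between pairs was 0.04 for these 15 class I genes (105 pairs). It was 0.04 for the 8 class II genes (28 pairs) and -0.003 between the classes (120 pairs). Over the 325 pairs of the 26 members detected in at least 10 cells the median rho was 0.01, as it was for all pairs of genes detected that often, and 3 pairs (0.923%) exceeded 0.3, against 0.935% of all pairs. The 3 pairs were H2-DMb1 with H2-DMb2 (0.66), H2-D1 with H2-Q1 (0.43) and H2-K2 with H2-Q1 (0.35). H2-DMb1 has 22.7% of its 50-base stretches in H2-DMb2, and for H2-D1 the gene with most shared stretches is H2-Q1 (5.87%). The part of shared sequence in these correlations was not tested.

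**Figure D5:**
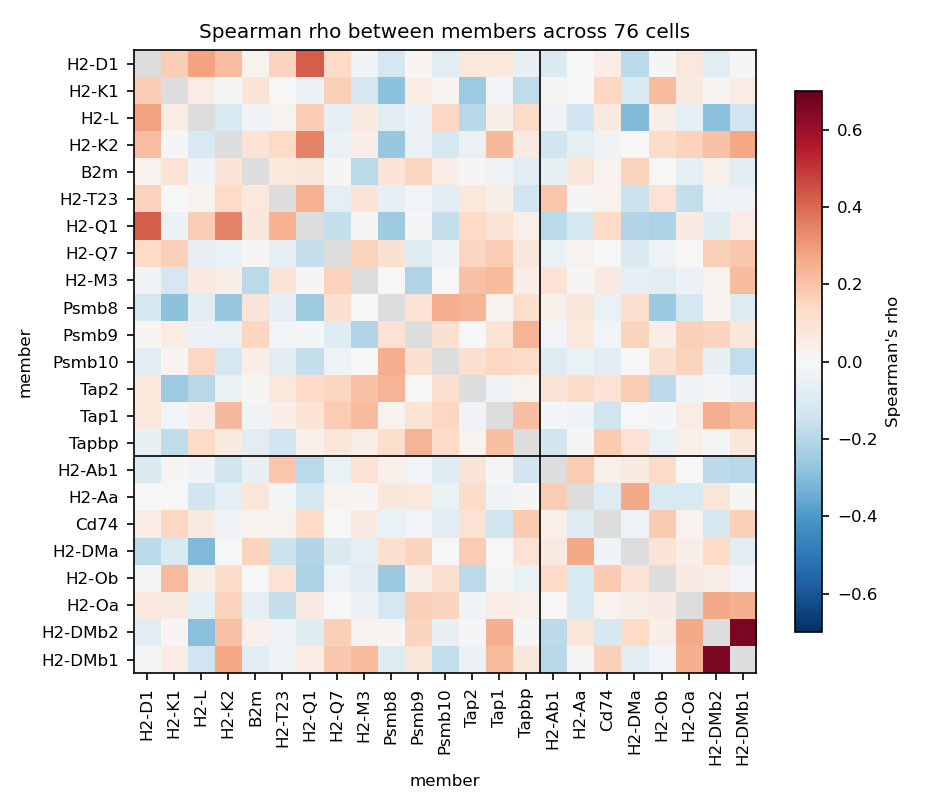
Spearman rho across 76 cells between pairs of the 15 class I and 8 class II genes detected in at least 10 cells, as a colour from negative to positive. Class I includes B2m and the peptide processing genes, and class II includes Cd74 and the exchange genes. The darkest positive cell off the diagonal is H2-DMb1 with H2-DMb2 (0.66), and 1 pair, H2-DMa with H2-L (-0.31), lies below -0.3.

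Outside the members, the genes whose level was most like the class I sum across the 76 cells were Otos (rho 0.43), Add1 (0.42), Ptgr1 (0.39), Inpp5b (0.39), Arid5a, Faim, Sri and Scfd1 (each 0.38), among 6757 genes detected in at least 15 cells. Of these genes 0.0296% had a rho above 0.4. For the class II sum they were Cmtm8 (0.47), Mgl2, a C-type lectin of macrophages and dendritic cells (0.42), Cxcr6 (0.40), 2410015M20Rik (0.40), Kdm6b, a histone demethylase (0.38), Dera (0.37), D19Ertd737e (0.36) and Itm2c (0.36), and 0.0444% had a rho above 0.4. Cxcr6 reached 10 TPM in 0 cells. These genes were picked as the highest of many, so their values are a description only.

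Interferon is known to raise class I genes, and the genes of its pathway were set beside them. Of 17 listed pathway genes, 10 were detected in at least 38 cells, against 23.1% of all genes. They were led by Ifngr1 (72 cells), Ifnar2 (60) and Socs1 (57), with Irf1 in 44. Of 30 listed interferon targets, 5 were detected in at least 38 cells, against 23.1% of all genes. These 5 included Ifi35 (65) and Isg20, Rtp4 and Igtp (51 each). Another 4 were detected in 0 cells, among them Mx1, as were 18.8% of all genes. Ifit1 was found in 1 cell. The summed pathway genes ranked with the class I sum at rho 0.37 and the summed targets at 0.03 over 76 cells, as a description.

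Markers of cells that carry class II at high level were checked in the same cells. Of 13 listed dendritic markers, Id2 (73 cells), Tcf4 (60) and Irf8 (44) were the most widespread, whereas Irf4, Xcr1 and Cd209a were in 0 cells, Zbtb46 in 1 and Itgax in 2, and the summed list ran from 1.16 to 2553 TPM (median 285 TPM). Of 6 listed B cell markers, Cd79a and Cd22 were in 0 cells and Cd79b in 28, Vpreb1 and Igll1 in 1 each, with a summed level of 0 to 456 TPM (median 0.145 TPM). Of 13 listed macrophage and monocyte markers, Emr1 (Adgre1, which encodes F4/80) was in 60 cells, Lyz2 in 54 and Cd68 in 25, and C1qb and Cd14 were in 0, with a summed level of 0.318 to 2998 TPM (median 242 TPM). Over 76 cells the summed lists ranked with the class II sum at rho 0.12, -0.07 and -0.16. The part of such cells in the class II values was not tested.

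The titles of the cells pair letters (A to H) with numbers (2 to 11), as wells of a plate would be named, but no label calls them wells. H2-Ab1 reached 10 TPM in 13 of 37 cells with numbers 2 to 6 (35.1%, median 2.82 TPM) and in 25 of 39 cells with numbers 7 to 11 (64.1%, median 91.1 TPM), and in 8 of 8 cells with number 7. It was the only one of the 26 members whose share was over 20 percentage points higher in the higher numbers, against 0.772% of the 8034 genes in at least 10 cells. Bst2 was the only one over 20 points lower (35 of 37 against 28 of 39 cells), against 5.05% of those genes. The 7 cells low in H2-D1 all carried numbers 7 to 11 (37 of 37 against 32 of 39 cells at 10 TPM), while Cd74 differed less, with 8 of 37 and 12 of 39. The comparison of the number ranges was chosen with the values known, and the part of the title position in these differences was not tested.

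The number of genes detected in a cell had a rho of -0.05 with the class I sum and -0.19 with the class II sum over 76 cells. With the class I sum it was -0.26 in title numbers 2 to 6 and 0.072 in 7 to 11.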

How the data were processed

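RNA of 76 single sorted iHPCs was measured, 1 library per cell, and the authors deposited 1 table of TPM for 15192 genes, in which every column sums to 1000000, so depth is unknown. The tools named in the submitters' processing notes are StringTie 1.3.4, SAMtools 0.1.19, HISAT2 2.1.0 and bcl2fastq, with mm10; step order, annotation, strand setting and filters: not given in the sources used here. Every table column matched a cell by its title, and all cells form 1 group.

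Computed from these values were numbers of cells at 1 and 10 TPM with exact Clopper-Pearson 95% intervals, medians with order-statistic intervals, differences on log2(TPM + 1), and Spearman and Pearson correlations without p-values, with Python 3.11.15, pandas 2.3.3 and scipy 1.17.1. Intervals cover the counting of cells only. Of the procedures, only the ranking of genes by correlation with a sum and the order-statistic interval were tested on simulated data. The members and gene lists were chosen with earlier results of these data known. Members detected in at least 10 cells were described with values and the others mostly by counts, except H2-Eb1, H2-Eb2, Ciita and Nlrc5, added with their values known. Of each list the 3 genes found in most cells were named, and of other genes the 8 most correlated with each class sum. Further list genes (Erap1, Ctss, Ifi30, Cd80, Cd86, Rfx5, Rfxap, Irf1, Procr, Mr1, Raet1d, Raet1a, Raet1e, H60b, Ulbp1, Mx1, Ifit1, Cd34, Ptprc, Zbtb46, Itgax and genes in 0 cells) were chosen with their values known, and some list genes are not reported here. Of the 43 members, 39 matched a RefSeq symbol and 2 a synonym, and H2-L and H2-T9 did not match. Emr1 is the table's symbol for Adgre1, and 2 interferon targets were matched through a synonym (Ifi27 as Ifi27l1, Ifit3b as I830012O16Rik). Shared 50-base stretches and exon overlaps came from the GENCODE vM21 transcripts of GRCm38, and promoters from RefSeq; both checks were added with the values known. No doublet caller was run, since each library came from 1 sorted cell.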

Additional observations from a re-analysis of the deposited data

How the results depend on the processing

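The 14 main results were recomputed under 92 alternatives, of which 84 stayed within the interval or tolerance of the reported value. The sign turned in 9, each from a value whose interval or tolerance held 0: 7 of the median rho between the classes (0.00358 to 0.0256), 1 of Psmb10 against Psmb7 (0.026 in title numbers 7 to 11) and 1 given below. The wide interval of the class II level, 3.07 to 103 TPM, held its 4.24 and 91.1 TPM in title numbers 2 to 6 and 7 to 11 and 90.9 TPM with Cd74 added. Detection of an alpha chain, its beta chain and Cd74 together changed from 18.4% of cells to 30.3% at any value above 0 and to 0% at 5 or 10 TPM. No alpha chain reached 5 TPM in any cell. The class I level of 739 TPM became 597 TPM for classical heavy chains only and 2272 TPM with B2m added, by the construction of the sum. The rho of genes detected with the class I sum was -0.26 in title numbers 2 to 6 and 0.072 in 7 to 11, and that with the class II sum was -0.046 in numbers 2 to 6; the cause was not tested. A rho was taken as moved when it changed by over 0.1. The shares of cells of 26 members had 182 alternatives, of which 156 stayed within the interval. Unknown depth limits every statement on absence. No paired analysis was possible because all cells form 1 group.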

Other observations

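Other molecules that resemble class I were also captured in a minority of the cells. Of 11 listed genes, Cd1d1, which presents lipids to natural killer T cells, was detected in 31 cells (27 at 10 TPM, up to 449 TPM), Cd1d2 in 20 and Fcgrt, the neonatal Fc receptor, in 16. None of the 11 was detected in at least 38 cells, against 23.1% of all genes. Procr, a marker of haematopoietic stem cells, was detected in 13 cells, and Mr1, which presents vitamin metabolites, in 10. Among the ligands of the NKG2D receptor, Raet1d was found in 8 cells, Raet1a and Raet1e in 3 each, and H60b and Ulbp1 in 1 each. The summed list ranked with Cd74 at rho 0.32 and with the class I sum at 0.07 over 76 cells.

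Of 12 listed T and innate lymphoid markers, Nkg7 (73 cells), Lck (44) and Tcf7 (37) were the most widespread, and Cd3e, Bcl11b and Ncr1 were in 0 cells. Their sum ranked with the class II sum at rho -0.20. Of 9 listed stromal and endothelial markers, Eng (37 cells), Pecam1 (24) and Pdgfrb (22) were the most widespread, and Col1a1, Col1a2, Kdr and Tek were in 0. With the class I sum, the summed pan-haematopoietic list ranked at rho 0.29, the dendritic list at 0.26, the stromal and endothelial list at 0.25 and the endosomal genes at 0.17. Lowest with it were the constitutive proteasome subunits (-0.23), class II promoter factors (-0.18), B cell markers (-0.17) and T and innate lymphoid markers (-0.16). With Cd74, the pan-haematopoietic list ranked at 0.38 and the interferon pathway at 0.31. Lowest with Cd74 were the T and innate lymphoid markers (-0.24), constitutive proteasome subunits (-0.19) and B cell markers (-0.18). These values were picked from 15 lists and are a description only.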
